A study of Mus musculus with 18 samples.

Results

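Gad1, Gad2, Slc32a1, Dlx1, Dlx2, Dlx5, Lhx6, Sst and Npy are genes by which GABAergic interneurons are recognised. They were taken by symbol from the deposited expression table of hippocampal cultures, and all 9 had a row among its 12012 genes. The question put to them was whether the interneuron share of the cultures differed between Fibcd1 knock-out (KO) and wild-type (WT) neurons grown on chondroitin sulphate proteoglycans (CSPG).

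Interneurons are the inhibitory neurons of the hippocampus, and they release GABA onto the excitatory pyramidal cells that make up most of its neurons. They are born outside the hippocampus, in the ganglionic eminences of the ventral forebrain, where Dlx transcription factors set the GABAergic fate and Lhx6 marks the cells of the medial eminence. GABA is made from glutamate by the decarboxylases GAD67 (Gad1) and GAD65 (Gad2) and is loaded into vesicles by VGAT (Slc32a1), and many cells of the medial eminence later make the peptides somatostatin (Sst) and neuropeptide Y (Npy).

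The series labels 18 libraries, of which 5 are WT, 5 WT_CSPG, 4 KO and 4 KO_CSPG, and the table has columns for replicates A to D of WT_CSPG and of KO_CSPG. The other 10 libraries were not analysed here. Both groups compared were primary hippocampal neurons from E18.5 embryos, plated on coverslips with a CSPG coating, and were collected on the third day in vitro by the study's text, a day that a supplementary legend puts earlier. The KO mice carried the Fibcd1tm1Lex allele, a germline knock-out, and were bred on a C57BL/6J background. Fibcd1 encodes a receptor for chondroitin sulphate. By the study's legend each replicate was its own preparation of cells, and neither litter nor sex is stated library by library.

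Reads over the genes of the table ranged from 10099564 to 11174615 in WT_CSPG and from 10541445 to 11647202 in KO_CSPG. Values are normalized counts, that is, reads per gene after scaling each library by its size factor. Fibcd1 had 54.3, 70.4, 60.1 and 182 normalized counts in WT_CSPG A to D and between 0.932 and 7.16 in KO_CSPG, a log2 fold change of -4.48 ± 0.58 (SE). The ranges did not overlap, so the labels held for the targeted gene. All 16 pan-neuronal genes examined had rows, and so did 9 of 9 astrocyte, 8 of 9 oligodendrocyte lineage and 7 of 10 microglial genes, so cultures labelled as neuron also held glial RNA. Of 10 genes of striatal projection neurons, the other large GABAergic class of the ventral forebrain, Drd1, Drd2, Ppp1r1b, Adora2a, Isl1, Ebf1, Six3 and Zfp503 had no row, in a table whose lowest gene mean was 40.7.

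Promoter sequences are shown for 3 members with a window that holds one of the short motifs searched. RefSeq windows on GRCm38.p6 were matched for the 8 members other than Dlx5, and the 250 bases before each RefSeq start were searched on both strands for TAATTA (a core that Dlx and Lhx homeodomain proteins bind), TGACGTCA (the cAMP response element), TATAAA (the TATA box) and CAGCTG (an E-box that proneural factors bind), none of which overlap one another. The cAMP response element was in 1.55% of 32851 windows and, among members, in Sst alone. It stands in capitals in these 30 bases of the minus strand at chr16:23890874-23890903.
Sst: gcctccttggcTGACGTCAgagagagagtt
TATAAA was in 12.4% of windows and in that of Gad1 alone. The capitals mark it as read from the other strand, in the plus strand of chr2:70561892-70562041, a stretch between annotated exons of Gad1.
Gad1: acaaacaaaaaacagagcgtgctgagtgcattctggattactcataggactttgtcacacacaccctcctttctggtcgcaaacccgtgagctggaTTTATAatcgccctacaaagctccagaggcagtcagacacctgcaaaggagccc
CAGCTG was in 13% of windows and, among members, in Lhx6 alone. Lhx6 had windows at several RefSeq starts, and only the most upstream of them held CAGCTG. It stands at the capitals in the minus strand of chr2:36105409-36105558.
Lhx6: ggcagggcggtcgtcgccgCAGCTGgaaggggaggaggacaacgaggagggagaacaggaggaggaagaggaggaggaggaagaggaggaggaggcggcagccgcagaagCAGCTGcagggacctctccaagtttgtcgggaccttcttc
TAATTA was in 4.84% of windows and in 0 of the 8. No motif was shared by 2 members, and these matches describe the letters of the windows only.

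Across the 8 libraries, the peptide gene Sst stood far above the other members per unit of length. Its mean was 1899 normalized counts per kb, with a range of 1557 to 2237, which put it at percentile 99.0 of all genes of the table. Npy (322 per kb) and Gad1 (321.5 per kb) came next and their ranges overlapped. Dlx1 (207 per kb) and Lhx6 (186 per kb) also overlapped, as did Gad2 (119.9 per kb) and Slc32a1 (104 per kb). Dlx2 (56.0 per kb) and Dlx5 (33.5 per kb) were the lowest, each apart from its neighbours in the order, and Dlx5 stood at percentile 20.05. These levels divide by the table's own gene length, 599 bases for Sst and 7639 for Gad1.

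**Figure D1:**
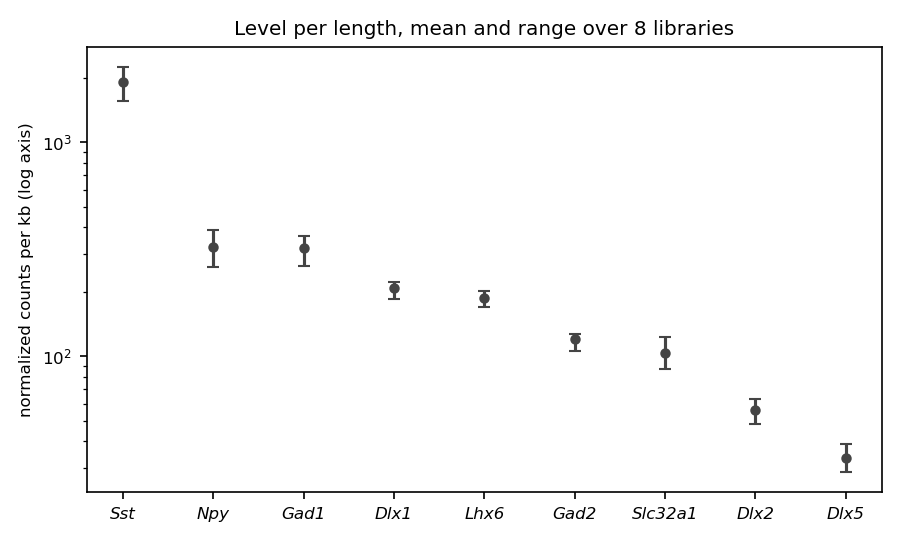
Level of each member per kb of gene length (log axis), with the mean over the 8 libraries as a point and the lowest and highest library as a bar. Sst (1899 per kb) lies above all others, and Dlx5 (33.5 per kb) is the lowest.

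None of the 9 members passed the test between KO_CSPG and WT_CSPG. In limma with Benjamini-Hochberg adjustment over the 12012 genes, 0 of 9 had an adjusted p under 0.05, while 2.83% of the 11553 genes counted did, 122 (1.06%) higher and 205 (1.77%) lower. At an unadjusted p under 0.05 there were 2 members, Gad1 and Slc32a1, beside 16.2% of all genes. The ranges of the groups overlapped for all 9, where 9.22% of all genes had ranges apart. The median log2 fold change of the members was -0.02, beside 0.00 for all genes. In bulk RNA, fewer interneurons and less of these transcripts per interneuron cannot be told apart.

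**Figure D2:**
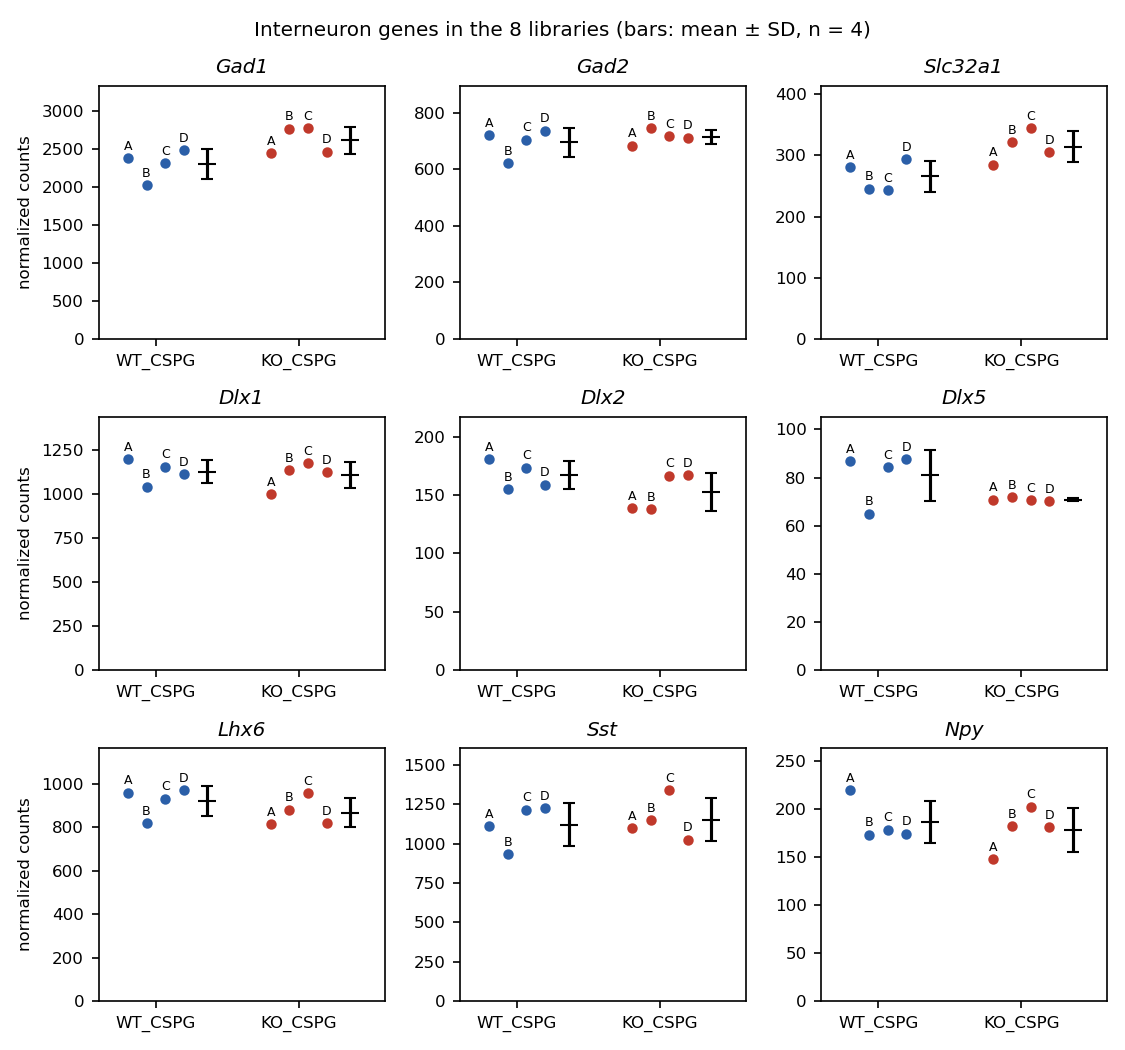
Normalized counts (vertical axes, from 0) of the 9 members in replicates A to D of WT_CSPG (blue) and KO_CSPG (red), with the mean and SD of 4 libraries as bars. The ranges of the groups overlap in every panel, and WT_CSPG B is the lowest of its group in 8 of the 9.

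The genes for making and packing GABA had estimates above 0. Gad1 (ENSMUSG00000070880, chr2:70553072-70602014, plus strand), the main decarboxylase outside terminals, had 2383, 2021, 2312 and 2482 normalized counts in WT_CSPG A to D. In KO_CSPG A to D it had 2446, 2767, 2774 and 2463. KO_CSPG B and C lay above every WT_CSPG library, and A and D lay inside the WT_CSPG range. The means were 2300 ± 199 and 2613 ± 182 (SD, n = 4), a log2 fold change of 0.19 ± 0.07 (SE) with an adjusted p of 0.228 in limma, and a fold of 1.14 with a 95% interval of 1.02 to 1.27.

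Slc32a1 (ENSMUSG00000037771, chr2:158610767-158615748, plus strand), the vesicular GABA transporter, came closest to the threshold. Its values in WT_CSPG A to D were 281, 246, 243 and 293 normalized counts. In KO_CSPG A to D they were 285, 322, 345 and 305, so that only KO_CSPG A fell inside the WT_CSPG range. The log2 fold change was 0.24 ± 0.07 (SE), a fold of 1.182 (95% interval 1.06 to 1.31), with an unadjusted p of 0.00357 and an adjusted p of 0.0849 in limma. Without WT_CSPG D the estimate was 0.29 and the adjusted p 0.0272, the only case among the libraries left out in which a member passed. The number of genes passing rose to 550 in that setting.

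Gad2 (ENSMUSG00000026787, chr2:22622205-22693874, plus strand), the decarboxylase of terminals, was close to equal. It had 721, 621, 704 and 736 normalized counts in WT_CSPG A to D. KO_CSPG A to D had 684, 745, 716 and 711, of which B alone lay above the WT_CSPG range. Its log2 fold change was 0.04 ± 0.05 (SE), and the interval of the fold, 0.955 to 1.11, is the narrowest among the 3 GABA genes.

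**Figure D3:**
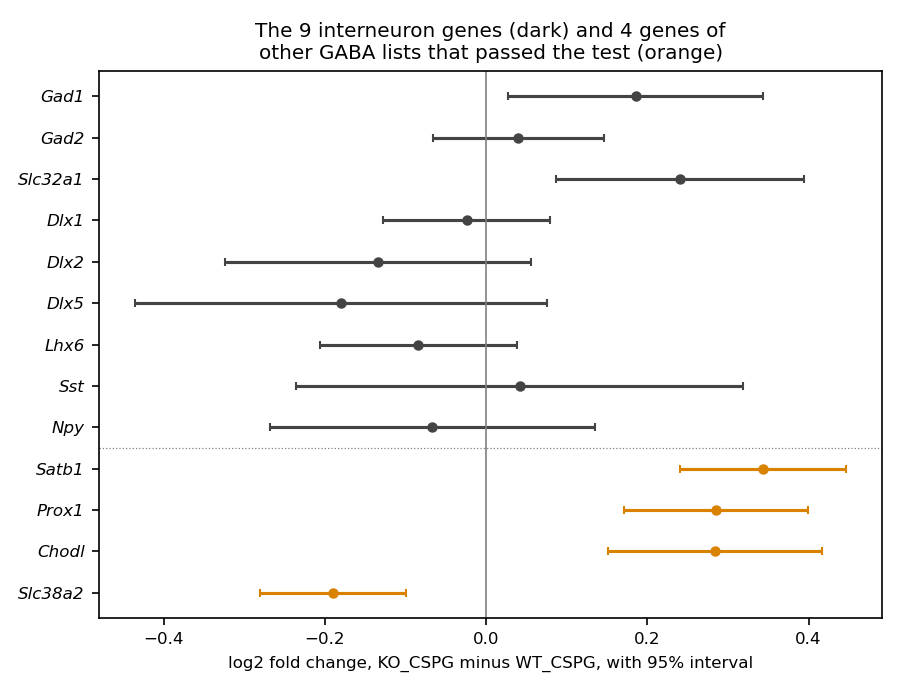
Log2 fold change of KO_CSPG against WT_CSPG (horizontal axis) with its 95% interval, for the 9 members (dark) and for Satb1, Prox1, Chodl and Slc38a2 of the other GABA lists, which passed the test (orange). The intervals of Gad1 and Slc32a1 lie above 0 before adjustment, and those of the other 7 members include 0.

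The 4 transcription factor genes all had estimates below 0, and none passed. Dlx1 (ENSMUSG00000041911, chr2:71528113-71533981, plus strand), a homeodomain factor of GABAergic fate, had 1197, 1041, 1155 and 1113 normalized counts in WT_CSPG A to D. In KO_CSPG A to D it had 999.7, 1135, 1175 and 1124, and only KO_CSPG A lay under the WT_CSPG range. The log2 fold change was -0.02 ± 0.05 (SE), with a fold between 0.915 and 1.06 (95% interval). Dlx1 shares 335 exonic bases (6.21% of its own) with the antisense gene Dlx1as, whose reads there cannot be told apart, because no use of strand in the counting is stated.

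Dlx2 (ENSMUSG00000023391, chr2:71543408-71546754, minus strand) is the partner gene of Dlx1, 9426 bases away on the opposite strand. Its WT_CSPG A to D values were 181, 155, 174 and 159 normalized counts. KO_CSPG A and B, with 139 and 138, were below all WT_CSPG libraries, while C and D, with 167 and 167, were inside the range. The log2 fold change was -0.13 ± 0.09 (SE), with an adjusted p of 0.520 in limma.

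Dlx5 (ENSMUSG00000029755, chr6:6877805-6882085, minus strand), which acts after Dlx1 and Dlx2, had 86.7, 65.0, 84.4 and 87.6 normalized counts in WT_CSPG A to D. KO_CSPG A to D had 70.8, 71.8, 70.5 and 70.2. WT_CSPG B alone was below the KO_CSPG libraries, and the other 3 were above them. The estimate of -0.18 ± 0.12 (SE) had an adjusted p of 0.522 in limma. Dlx5 rested on 60 to 87 reads per library, and the spread of the KO_CSPG libraries, a coefficient of variation of 0.99%, was smaller than the 11.5% that counting alone gives.

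Lhx6 (ENSMUSG00000026890, chr2:36081953-36105408, minus strand), the factor of the medial eminence, had 959, 819, 932 and 971 normalized counts in WT_CSPG A to D. In KO_CSPG A to D the values were 814, 881, 958 and 820. KO_CSPG A lay under the WT_CSPG range and the other 3 inside it. The log2 fold change was -0.08 ± 0.06 (SE), with an adjusted p of 0.527 in limma and a 95% interval of the fold from 0.867 to 1.03.

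The peptide genes spread widely between libraries of 1 group. Sst (ENSMUSG00000004366, chr16:23889581-23890844, minus strand) had 1112, 932, 1216 and 1226 normalized counts in WT_CSPG A to D. KO_CSPG A to D had 1099.6, 1149.7, 1340 and 1025. The groups overlapped over most of their spans, and the log2 fold change was 0.04 ± 0.12 (SE), with a fold between 0.849 and 1.25 (95% interval). Npy (ENSMUSG00000029819, chr6:49822710-49829507, plus strand) had 219, 173, 178 and 174 normalized counts in WT_CSPG A to D. In KO_CSPG A to D it had 147, 182, 202 and 181, with A below and the others within the WT_CSPG span. Its log2 fold change was -0.07 ± 0.10 (SE), and the coefficient of variation was 11.9% in WT_CSPG and 12.8% in KO_CSPG.

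Set against each other within a library, the GABA genes and the transcription factor genes did not keep the same ratio in the groups. The mean log2(value + 1) of Gad1, Gad2 and Slc32a1 minus that of Dlx1, Dlx2, Dlx5 and Lhx6 was 1.09, 1.14, 1.05 and 1.21 in WT_CSPG A to D. It was 1.38, 1.46, 1.37 and 1.33 in KO_CSPG A to D. The ranges did not overlap, and the means were 1.12 ± 0.07 and 1.38 ± 0.06 (SD, n = 4), a difference of 0.26 that stayed between 0.24 and 0.29 when any library was left out. This split of the members by role was compared after their values had been seen, so it is a description with no test. It did not hold in every setting. With the level of the Y-linked genes (below) as a covariate, Gad1, Gad2 and Slc32a1 had log2 fold changes of 0.22, 0.14 and 0.25. Dlx1, Dlx2, Dlx5 and Lhx6 then had 0.085, 0.34, 0.24 and 0.047, so the factors were no longer below 0. The SE of these estimates ran from 0.17 to 0.42. The mean log2 value of the GABA genes was 0.16 higher in KO_CSPG, and that of the factors had a difference of -0.11 (KO_CSPG minus WT_CSPG), which widens the gap when it is subtracted.

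**Figure D4:**
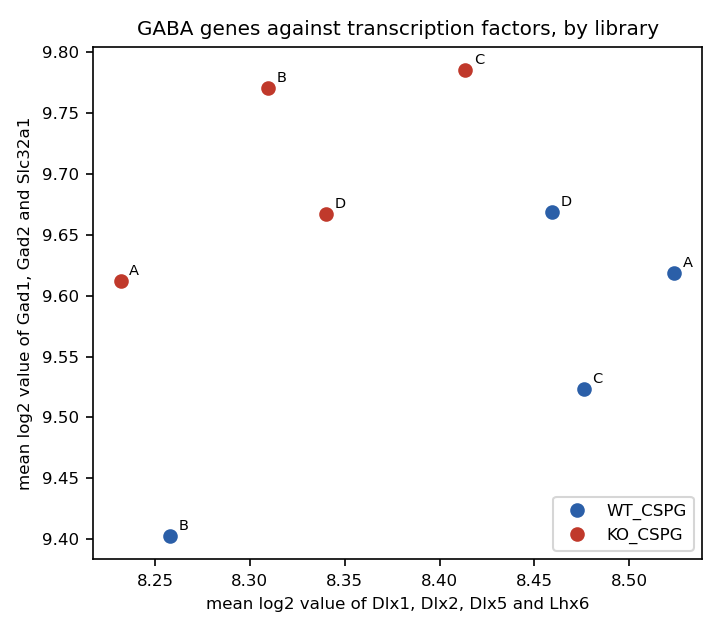
Mean log2(value + 1) of Gad1, Gad2 and Slc32a1 (vertical axis) against that of Dlx1, Dlx2, Dlx5 and Lhx6 (horizontal axis), 1 point per library, with the replicate letter. At a like level of the factors the KO_CSPG libraries (red) sit higher, and the difference between the axes is 1.33 to 1.46 in them against 1.05 to 1.21 in WT_CSPG (blue).

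Taken over all 9 genes, the level against excitatory neurons was close in the groups. The mean log2 value of the members minus that of 13 glutamatergic neuron genes was -0.75, -1.06, -0.81 and -0.86 in WT_CSPG A to D and -1.07, -0.87, -0.80 and -0.96 in KO_CSPG A to D. The difference of the means, -0.06, was smaller than the SD within either group, 0.14 and 0.12. With levels summed per length the difference was 0.08 on the log2 scale, of the opposite sign. Those sums rest mostly on few genes, Sst (1899 per kb) among the members and Neurod6 (2756) and Bhlhe22 (2263) in the glutamatergic list. Against 16 pan-neuronal genes the means were -3.40 ± 0.11 and -3.38 ± 0.09 (SD, n = 4).

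A narrower ratio gave higher values in most KO_CSPG libraries. Gad1, Gad2 and Slc32a1 summed per kb, over the vesicular glutamate transporter genes Slc17a6 and Slc17a7 summed in the same way, came to 2.40, 2.01, 2.29 and 2.33 in WT_CSPG A to D. In KO_CSPG A to D the ratio was 2.34, 2.72, 2.82 and 2.44. KO_CSPG A lay inside the WT_CSPG range and the other 3 above it. Slc17a6 was between 717 and 801 normalized counts in WT_CSPG and between 688 and 710 in KO_CSPG, without passing the test (adjusted p = 0.111 in limma). Slc17a7 went the other way, between 400.2 and 515 in WT_CSPG and between 476 and 546 in KO_CSPG, also without passing (adjusted p = 0.407 in limma). Their sum per kb was nearly level, with means of 228 ± 7.3 and 223 ± 6.1 (SD, n = 4).

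The members rose and fell together from library to library within a group. After each group mean was removed from log2(value + 1), all 36 pairs of members had a Pearson r above 0 over the 8 libraries, with a median of 0.68. With the 12003 genes outside the set, the median r of a member lay between -0.013 (Dlx5) and 0.006 (Sst). The closest pair was Gad1 and Lhx6 (r = 0.946), followed by Lhx6 and Sst (r = 0.922) and Gad2 and Dlx5 (r = 0.916). Gad1 and Dlx2 were the least alike (r = 0.214), and the next lowest pairs, such as Dlx5 with Npy (r = 0.264) and Gad2 with Dlx2 (r = 0.269), also held Dlx2 or Npy. These values describe 8 libraries that share their depth and scaling, and without WT_CSPG B the median was 0.53 with 32 of 36 pairs above 0.

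WT_CSPG B was low for the whole set. All 9 members were under their group mean in it, and 8 of 9 had the lowest value of the group there, as did 24.3% of all genes. The mean deviation of the members was -0.17 on the log2 scale, beside -0.01 for the pan-neuronal and 0.03 for the glutamatergic genes. In KO_CSPG A all 9 members were also under their group mean, by -0.11 on average, and 6 were the lowest of the group. KO_CSPG C and WT_CSPG D each held the highest value for 6 members.

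**Figure D5:**
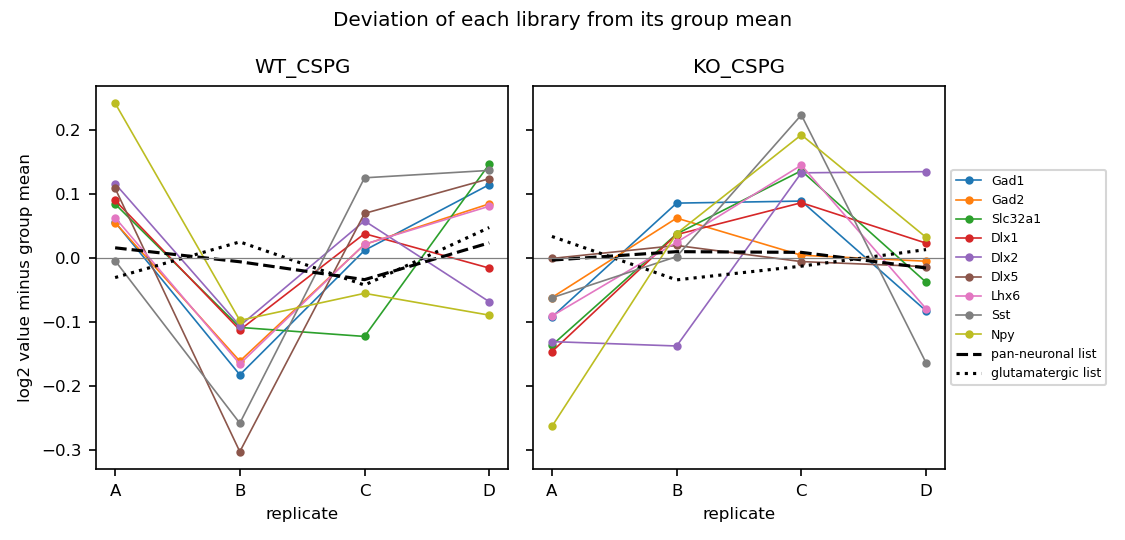
Log2(value + 1) of each member minus its group mean (vertical axis) in replicates A to D of each group, with lines joining the values of 1 gene and no order among replicates. In WT_CSPG B and KO_CSPG A all 9 members lie below 0, while the means of the pan-neuronal (dashed) and glutamatergic (dotted) genes stay near 0.

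Other marker lists also moved in WT_CSPG B. The mean deviation there was 0.31 for 8 oligodendrocyte lineage genes, 0.09 for 9 astrocyte genes and 0.72 for 3 choroid plexus genes. It was 0.38 for 7 vascular and fibroblast genes, -0.23 for 2 striatal genes, -0.20 for 10 activity-regulated genes and -0.19 for 4 Y-linked genes. In KO_CSPG A the same lists stood at 0.12, 0.07, 0.99, 0.09, -0.01, -0.08 and 0.11. In WT_CSPG D the members were on average above their group mean by 0.06. The oligodendrocyte lineage, astrocyte and choroid plexus lists were high there as well, at 0.29, 0.08 and 1.56. The vascular and fibroblast list stood at 0.36, and the other 3 at -0.06, -0.10 and -0.01. The microglial list was low in WT_CSPG D, at -0.15, and stood at 0.02 in both WT_CSPG B and KO_CSPG A. Several of the largest shifts were in other libraries. The oligodendrocyte lineage, astrocyte, choroid plexus, and vascular and fibroblast lists stood at -0.41, 0.03, -2.20 and -0.96 in WT_CSPG C (members 0.02). In KO_CSPG C they stood at -0.17, -0.04, -1.07 and -0.84, with the members at 0.11. The part of these lists in the level of the members was not tested. Leaving out WT_CSPG B gave 0 members passing and moved Gad2 and Sst to log2 fold changes of -0.01 and -0.04, while Gad1 and Slc32a1 stayed at 0.12 and 0.20.

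Among the other 12003 genes, the one whose values followed the mean of the members most closely was Maf (r = 0.9748), a transcription factor of interneurons from the medial eminence. It had 1061, 887, 1018 and 1093 normalized counts in WT_CSPG A to D and 951, 1073, 1116 and 1004.9 in KO_CSPG A to D, low in WT_CSPG B and KO_CSPG A like the members. With any library left out, the r of Maf stayed between 0.956 and 0.991 and its rank between 2 and 16. Ghr, Tmem60, Impact, Scrt1, Timm10b, Nhlrc1 and Igf2bp2 came next, with r of 0.971 to 0.956 over the 8 libraries. Which 8 genes led depended on the libraries, and 1 to 4 of them remained when a library was left out.

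Of the wider set of GABAergic lineage genes, 3 of 19 rose in KO_CSPG and 0 fell. Among all genes counted, 1.06% rose and 1.77% fell. Satb1, a chromatin organiser of maturing medial eminence interneurons, had 531, 520, 498 and 542 normalized counts in WT_CSPG A to D and 624, 704, 665 and 662 in KO_CSPG A to D, with no overlap. Its log2 fold change was 0.34 ± 0.05 (SE), with an adjusted p of 1.4e-04 in limma. Prox1, a factor of caudal eminence interneurons that dentate granule cells also express, rose by 0.29 ± 0.05 (SE), with an adjusted p of 0.00918 in limma. It had 1970, 1728, 1685 and 1786 normalized counts in WT_CSPG A to D and 2184, 2353, 2210 and 1989 in KO_CSPG A to D, again with no overlap. The list's median was 0.03, and Erbb4, Sp9, Npas1, Nr2f2 and Maf were among the 16 that did not pass.

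Genes that divide interneurons into subtypes gave 1 call among 16, beside 2.83% of all genes counted. Chodl, which in cortex marks long-range Sst and Nos1 neurons, had 414, 339, 416 and 374 normalized counts in WT_CSPG A to D and 470, 443, 459 and 502 in KO_CSPG A to D. The groups did not overlap, and its log2 fold change was 0.28 ± 0.06 (SE), with an adjusted p of 0.0132 in limma, which was above 0.05 without WT_CSPG B, KO_CSPG A or KO_CSPG D. Nos1 itself was at -0.10 and Sst at 0.04. Adarb2, a marker of caudal eminence cells, had an adjusted p of 0.0510 in limma with a log2 fold change of 0.27. Pvalb, Vip, Htr3a, Lamp5, Crhbp, Cplx3, Crh and Penk had no row. The list's median was 0.12.

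Among 11 genes that handle GABA and its precursors, 1 rose and 1 fell, beside 1.06% and 1.77% of all genes counted. The gene that fell, Slc38a2, had 2379, 2044, 2333 and 2100 normalized counts in WT_CSPG A to D and 1881, 2014, 1941 and 1911 in KO_CSPG A to D, with no overlap. Slc38a2, an amino acid transporter that carries glutamine, fell by 0.19 on the log2 scale (SE 0.04), with an adjusted p of 0.0187 in limma, and 5 of the 8 settings with a library left out took it past 0.05. Abat, the GABA transaminase, had a log2 fold change of 0.14 without passing (adjusted p = 0.0784 in limma), and its ranges were apart. With a prior variance that did not follow the mean level, Satb1 alone of the 6 calls in these 3 lists passed.

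In the glutamatergic neuron list 2 of 13 genes rose and 3 fell, so the reference of the comparison above was itself not level. The shares over all genes counted were 1.06% and 1.77%. Bhlhe22, a factor of projection neurons, rose by 0.18 on the log2 scale. Fezf2, a factor of deep-layer projection neurons, fell by 0.42, and the pyramidal neuron factors Neurod2 and Neurod6 fell by 0.21 and 0.19. Uchl1 fell by 0.11 on the log2 scale and was the only call among 16 pan-neuronal genes.

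Other markers differed between the groups beside the members. Olig1 and Olig2 rose by 0.59 and 0.79 on the log2 scale, and the summed oligodendrocyte lineage genes ran from 1098 to 1461 normalized counts in WT_CSPG and from 1708 to 1913 in KO_CSPG. Fosb fell by 1.82 and Nptx2 by 0.55 among 10 activity-regulated genes, all 10 of which had estimates below 0. Limma made no call among 9 astrocyte, 7 microglial, 4 Cajal-Retzius, 3 choroid plexus, 7 vascular or fibroblast, 7 proliferation and 2 striatal genes. In that order, 2, 3, 2, 0, 2, 0 and 0 of them had an unadjusted p under 0.05 in limma. Their part in the values of the members was not tested.

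The 4 Y-linked genes were lower in KO_CSPG by 0.67 to 0.85 on the log2 scale with ranges apart, so the Y-linked level differed between the groups beside the members. Genotype took up 91.2% of the variance of their summed level, so genotype and the sex makeup of the cultures cannot be told apart here. With that level as a covariate, all 9 members had estimates above 0 and adjusted p of at least 0.884 in limma, while 1 gene of the table passed, and 0 genes of the GABA lists did.

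On chromosome 2, which carries Fibcd1, lie 6 of the 9 members and 8% of the table's genes. Lhx6 is 4.26 Mb and Gad2 9.17 Mb from Fibcd1, and the others are at least 38.8 Mb away. Within 10 Mb on either side of Fibcd1, 2.53% of 198 genes passed the test, beside 2.83% overall.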

How the data were processed

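Poly-A RNA of the cultures was sequenced by the study as 50-base single reads, and alignment was done at its sequencing facility; the aligner and counter are not given in the sources used here, and the submitters' processing notes name mm10 and DESeq2. The authors deposited 1 table of normalized signal, in which the reads of each gene were scaled by DESeq2 size factors. Each library's values are whole multiples of 1 step, which gives the reads. Its columns for the authors' own comparison (fold change, its error, test statistic and significance) were not used, and 0 per-sample columns were left out. Genes of low mean are missing from the table.

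R 4.3.3 and its package limma 3.58.1 were used to fit log2(value + 1) of all 12012 genes on group alone, with a trended and robust prior and Benjamini-Hochberg adjustment. A gene passed at an adjusted p under 0.05, and 459 genes on X, on Y or called pseudogenes were tested but not counted. The fit was tested on simulated data. Models for counts were planned but not run, because genes of low counts are missing. P-values measure the spread between these cell preparations.

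The members and all gene lists were chosen with earlier results of these data known. Text names all members, the genes of the GABA and glutamatergic lists, those of other lists that passed, Fibcd1 and the 8 genes most like the members. Some genes of these lists are counted but not reported here by name. Positions and levels per kb use the table's own positions and lengths, with starts counted from 1, and 8 of the 9 members have the same position in GENCODE M21 on GRCm38. Sequences are from RefSeq.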

Additional observations from a re-analysis of the deposited data

Results flagged for a closer look

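Among 42 groups of 4 libraries examined, 3 had 1 library set apart from the other 3 by most of the group's range, where chance gives about 1 in 20 (2.1 here). Dlx5 was at 65.0 normalized counts in WT_CSPG B, and the other WT_CSPG libraries were between 84.4 and 87.6. Npy was at 219 normalized counts in WT_CSPG A, with the others between 173 and 178. Fibcd1 was at 182 normalized counts in WT_CSPG D, with the others between 54.3 and 70.4. The number of genes that passed rose from 327 to 550 without WT_CSPG D.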

How the results depend on the processing

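Of 170 values of members under the alternatives, 155 kept their direction and side of the threshold. Gad1, Slc32a1, Dlx2, Dlx5 and Lhx6 kept their direction in every setting with a library left out. Gad2 ranged from -0.013 to 0.068, Dlx1 from -0.062 to 0.025, Sst from -0.044 to 0.096 and Npy from -0.13 to 0.021 (log2 fold changes). Centred on the glutamatergic list, Gad2 and Sst were at -0.020 and -0.018. With the Y-linked covariate, Dlx1 was at 0.085, Dlx2 at 0.34, Dlx5 at 0.24, Lhx6 at 0.047, Npy at 0.10 and Fezf2 at 0.20. The cause of these shifts was not tested. Leaving out libraries gave 0 to 1 members passing, the 1 being Slc32a1 without WT_CSPG D.

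Over all genes, 711 passed when centred on the glutamatergic list (66 higher), 73 without the trend, 1 with the Y-linked covariate (825 at an unadjusted p under 0.05) and 177 to 550 with a library left out. Of those passing, 37.3% were higher as deposited, 50.3% with upper-quartile scaling and 49.7% centred on the pan-neuronal list. In the lineage list 1 passed without the trend and 0 with the covariate. In the subtype list 2 passed with a mean of at least 100, with upper-quartile scaling, with either centring, without the robust prior and with the block, 0 without the trend and with the covariate, and 0 to 3 with a library left out. In the GABA handling list 0 passed without the trend and with the covariate, and 1 to 4 with a library left out. In the glutamatergic list 1 passed without the trend and 0 with the covariate. In the pan-neuronal list 3 passed with glutamatergic centring, 2 with the block, 0 without the trend, without the robust prior and with the covariate, and 0 to 3 with a library left out. Members against the glutamatergic list came to 0.082 with summed per-length levels. Of the 8 most similar genes, 4 remained with group means kept in, and 1 to 4 with a library left out.

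Between libraries with equal replicate letters, the r of deviations from the group means was -0.07, 0.10, 0.27 and -0.01 for A to D. Unlike letters gave r from -0.20 to 0.11, and the value for C was the highest of all pairs. The labels do not say whether equal letters share a preparation day or litter, and these values cannot settle it. With the replicate letters as a block, 404 genes and 0 members passed, and Slc32a1 had an adjusted p of 0.104 in limma. Some alternatives were added after seeing the data, namely leaving out libraries for the pairs of members and for the GABA genes against the factors. Models for counts (edgeR, DESeq2) and the comparisons with untreated libraries were not run. Depth limits Dlx5 most, with 60 to 87 reads, and other members had at least 143.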
